A study of Mus musculus with 23 samples.

Results

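The subject is the tissue difference in the response to fibre, measured over all gene-start windows. The comparison asked whether a diet rich in resistant starch went with the same shift of captured methylated DNA in the left ventricle of the heart as in the spleen. It used 16 of the 23 libraries of the study, 4 in each of 4 groups: heart on high fibre, heart on control diet, spleen on high fibre and spleen on control diet. All came from male C57Bl/6 mice, housed singly, that ate their diet from 3 weeks before a minipump operation until the study ended. What the pumps delivered is not given in the sources used here. The control diet lacked resistant starch, and protein, fat, vitamins, sodium and potassium were alike in both diets. The other 7 libraries, from mice given acetate in their drinking water, stood outside the contrast. They entered the filter on low counts, the scaling and the estimate of the spread between libraries. The labels do not say whether each library of a group came from its own mouse, and the p-values therefore rest on library-to-library spread, which may be technical.

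DNA methylation places a methyl group on cytosines, in mammals mostly where a cytosine stands before a guanine (a CpG). Gene starts rich in CpG are usually unmethylated, while repeats such as the satellite DNA near centromeres are usually heavily methylated. Resistant starch is fermented by gut bacteria to acetate, propionate and butyrate, and butyrate inhibits histone deacetylases. Here sheared DNA was captured with a methyl-CpG binding protein (MethylMiner) and sequenced, and the reads were counted in windows of 3 kb at gene starts. The value followed throughout is a difference of differences on the log2 scale: the high fibre effect in heart (high fibre over control) minus the same effect in spleen. A positive value means that captured DNA moved up more, or down less, in heart than in spleen. The counts give captured DNA relative to the other windows of a library, not a methylation level, and a shift in the mix of cells cannot be told apart from a shift within cells.

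The 5 promoters below belong to called windows of small p, 3 positive and 2 negative, for which RefSeq (GRCm38.p6) lists a single promoter. They show how unlike in CpG content the starts with a tissue difference were. Each runs from 250 bases before to 50 bases after the start to which the promoter belongs, on the gene's own strand, with every CG in capitals. That start matches the outer coordinate of the gene in Hps6 and lies inside the gene in Wnk1, Hs3st5, Hook1 and Lrrc43.
Wnk1, chr6:120038606-120038905, minus strand: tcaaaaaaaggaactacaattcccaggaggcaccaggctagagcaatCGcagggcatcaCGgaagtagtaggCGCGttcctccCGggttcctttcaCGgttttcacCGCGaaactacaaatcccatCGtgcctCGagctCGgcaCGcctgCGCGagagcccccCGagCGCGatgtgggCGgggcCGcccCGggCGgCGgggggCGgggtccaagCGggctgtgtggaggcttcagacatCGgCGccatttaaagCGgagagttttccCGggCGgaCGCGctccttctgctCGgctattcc
Hs3st5, chr10:36506557-36506856, plus strand: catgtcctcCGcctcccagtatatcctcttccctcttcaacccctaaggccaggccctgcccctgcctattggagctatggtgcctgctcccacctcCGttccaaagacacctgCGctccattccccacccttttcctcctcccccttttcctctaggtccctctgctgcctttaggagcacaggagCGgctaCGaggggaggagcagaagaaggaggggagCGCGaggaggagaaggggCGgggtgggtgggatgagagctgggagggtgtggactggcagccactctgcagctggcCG
Hook1, chr4:95967129-95967428, plus strand: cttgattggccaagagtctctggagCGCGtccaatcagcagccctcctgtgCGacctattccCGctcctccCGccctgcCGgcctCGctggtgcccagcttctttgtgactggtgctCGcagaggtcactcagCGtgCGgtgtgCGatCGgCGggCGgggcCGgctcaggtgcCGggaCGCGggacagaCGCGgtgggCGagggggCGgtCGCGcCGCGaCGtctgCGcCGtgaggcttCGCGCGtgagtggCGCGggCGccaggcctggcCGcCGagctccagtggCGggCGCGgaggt
Hps6, chr19:46003228-46003527, plus strand: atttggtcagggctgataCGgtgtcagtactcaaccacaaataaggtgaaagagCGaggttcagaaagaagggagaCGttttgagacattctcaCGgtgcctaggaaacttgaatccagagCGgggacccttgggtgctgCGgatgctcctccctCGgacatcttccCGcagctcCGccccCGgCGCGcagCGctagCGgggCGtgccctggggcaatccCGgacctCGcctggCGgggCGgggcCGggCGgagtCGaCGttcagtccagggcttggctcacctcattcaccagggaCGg
Lrrc43, chr5:123489075-123489374, plus strand: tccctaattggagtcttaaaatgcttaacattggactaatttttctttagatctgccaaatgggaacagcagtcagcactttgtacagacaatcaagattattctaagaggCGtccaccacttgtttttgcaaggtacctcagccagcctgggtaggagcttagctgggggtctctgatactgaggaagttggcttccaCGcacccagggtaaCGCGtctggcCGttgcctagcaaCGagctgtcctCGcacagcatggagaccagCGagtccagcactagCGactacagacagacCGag
The CG dinucleotide, which reads the same on both strands, occurred 32 times in Wnk1, 9 times in Hs3st5 and 40 times in Hook1, where the difference was positive. It occurred 24 times in Hps6 and 10 times in Lrrc43, where the difference was negative. Of 22862 RefSeq promoters of this length 93.8% held it at least once, with a median of 7 and quartiles of 2 and 20. Both signs of the difference thus occurred at promoters above the upper quartile and below it.

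Total counts ran from 4121379 to 8598836 in the 8 heart libraries and from 6648287 to 9870625 in the 8 spleen libraries, but median counts per window were 38 to 70 in heart and 13 to 29 in spleen. Sparse windows therefore had wide errors, with a median standard error of 1.15 for the difference in the least abundant of 10 bins of windows and 0.20 in the most abundant. In control libraries the B cell genes held more captured DNA in heart than in spleen at 15 of 19 windows, with a median log2 difference of 0.55. Cardiomyocyte genes had -0.45 (13 of 33 higher in heart), against 0.22 over all windows. T and NK cell genes had 0.59, but myeloid genes (0.16) and erythroid and platelet genes (0.03) lay below the value of all windows. Spleen stroma genes had -0.11, fibroblast genes -0.17, endothelial genes -0.21 and smooth muscle and pericyte genes -0.37.

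The tables held 41388 windows. Of the 33982 with enough reads to test, 23 passed for a tissue difference (0.0677%), 8 of them positive (0.0235%) and 15 negative (0.0441%). Scaling to library totals turned that split into 6492 positive and 8 negative, and cyclic loess into 8 positive and 3 negative. Testing used edgeR's quasi-likelihood method with Benjamini-Hochberg adjustment at 5%. The positive ones were Wnk1, Trps1, Hs3st5, Hook1, Olfr309, Ear14, Fmr1 and the pseudogene Gm5287. The negative ones included Il27ra, Msi1, Hps6 and Lrrc43, and 7 windows of satellite-like sequence. In the same fit 5007 windows (14.7%) passed in heart alone and 0 in spleen alone, where 1379 (4.06%) had an unadjusted p under 0.05 (1.82% of all windows higher, 2.24% lower), DESeq2 and voom called 0 and loess with limma called 2. At an unadjusted p under 0.05 the tissue difference took in 5516 windows (16.2%), 2150 positive (6.33%) and 3366 negative (9.91%). The list of 23 depended on the libraries used. It was empty without heart high fibre replicate 4, without heart control replicate 3 or without spleen control replicate 2, and it grew to 619 windows without spleen control replicate 1, whose median count per window (13) was lowest of the 16. With the 16 high fibre and control libraries alone in the fit 576 windows passed, all 23 among them. Leaving out only heart acetate replicate 1 gave 261.

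**Figure D1:**
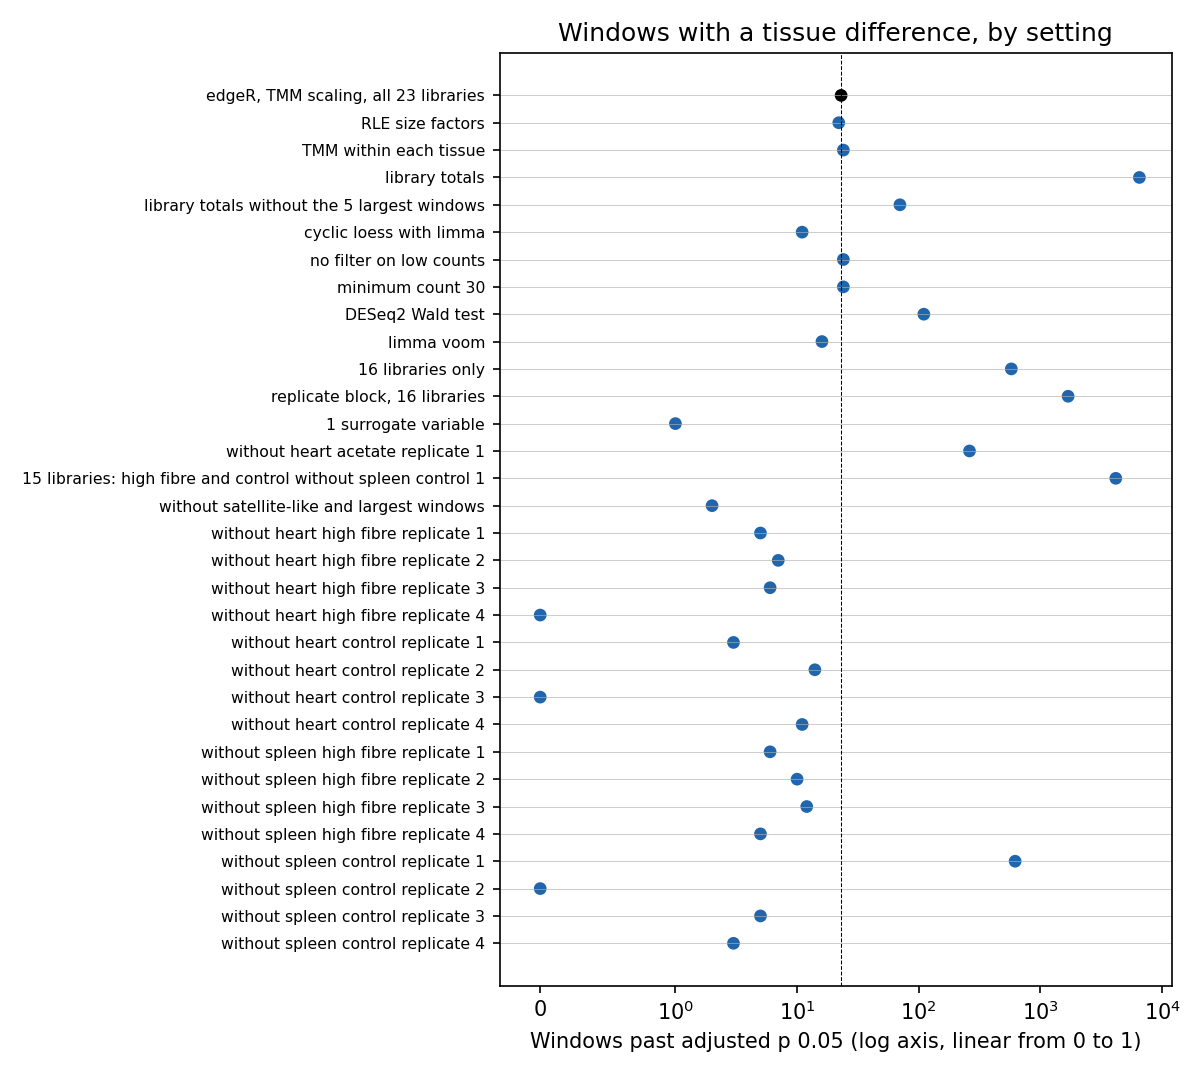
Number of windows past the threshold for a tissue difference (x axis, log scale above 1) under each setting (y axis), with the dashed line at 23. The counts run from 0 without heart high fibre replicate 4, heart control replicate 3 or spleen control replicate 2 to 6500 with library totals as the scale.

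**Figure D2:**
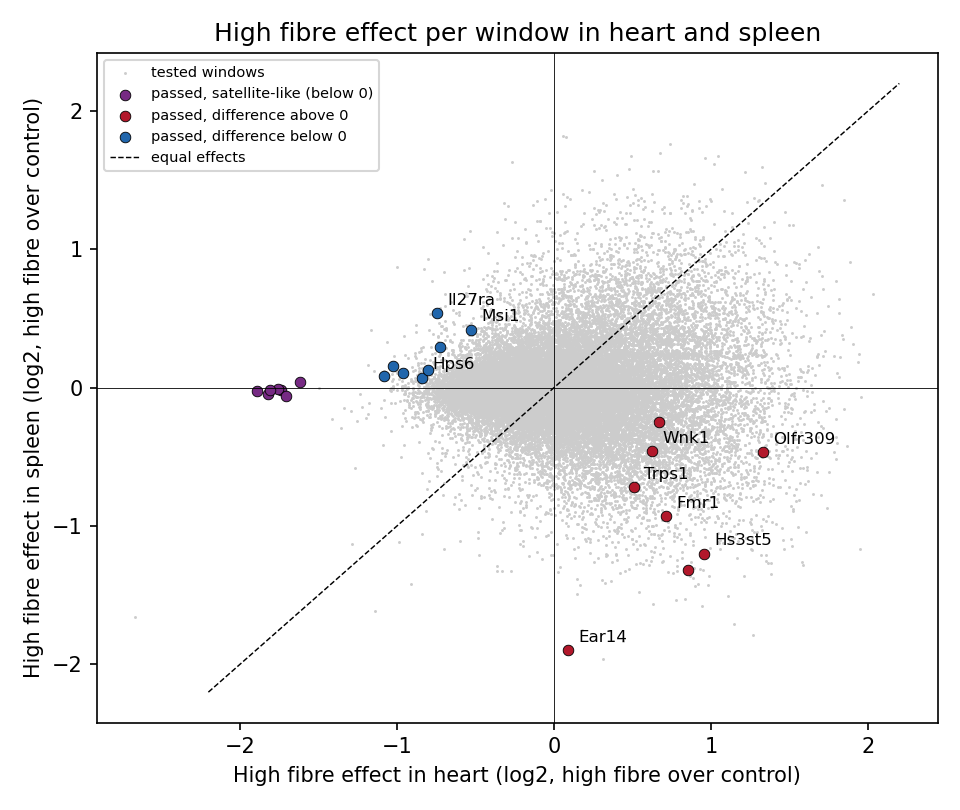
Each point is 1 tested window, with its high fibre effect in heart on the x axis and in spleen on the y axis, both as log2 of high fibre over control. Coloured points are the 23 windows past the threshold for a tissue difference; the 7 satellite-like windows lie near -1.8 in heart and near 0 in spleen, while Hs3st5, Fmr1, Trps1 and Wnk1 lie right of 0 in heart and under 0 in spleen.

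Of the 23 windows 12 had an effect of at least 0.2 in heart and under 0.2 in spleen, 10 had effects of at least 0.2 with opposite signs, and Ear14 alone had its effect in spleen only. Among all tested windows those counts were 13370, 4369 and 3949 of 33982. The 23 were chosen by the difference itself. That choice favours opposite signs, so the contrast with all windows adds no support. The effects in heart were measured in other libraries than those in spleen. For windows chosen by the heart effect alone, signs in spleen can therefore be set beside those of all windows. Of 1961 windows that passed as higher in heart (5.77%), 966 (49.3%) were above 0 in spleen, against 47.6% of all windows, and their median was 1.04 in heart and -0.01 in spleen. Of 3046 that passed as lower in heart (8.96%), 1294 (42.5%) were above 0 in spleen, with medians of -0.54 in heart and -0.02 in spleen. Over all windows Pearson's r between the effects in the tissues was 0.03 (33982 windows, which are not independent and share their libraries). The tissue difference passed at 22 of these 5007 windows, against 23 of all 33982 tested. The heart effect is part of the difference, so this overlap follows from shared values and is no separate result. The median standard error of the tissue difference was 0.31 on the log2 scale over all windows, against 0.20 for the heart effect and 0.23 for the spleen effect.

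Wnk1 (ENSMUSG00000045962) encodes a kinase that controls the salt transporters of the kidney and is tied to inherited high blood pressure. Its normalised read count (CPM, counts scaled to the size of each library) was 67.9, 72.3, 73.4 and 80.6 in high fibre heart, and 43.3, 49.9, 46.7 and 50.4 in control heart. In spleen it was 24.6, 25.1, 28.8 and 20.2 on high fibre, and 30.8, 38.0, 32.1 and 34.4 on control diet. All high fibre hearts lay above all control hearts, and all high fibre spleens lay below all control spleens. Effects are given with a prior count of 2, which draws sparse windows towards 0, while each standard error (SE) belongs to the effect without it. The heart effect was 0.63 (SE 0.13, edgeR adjusted p = 0.00681) and the spleen effect -0.46 (SE 0.15, adjusted p = 1.00). The difference was 1.09 (SE 0.20, adjusted p = 0.0147). Wnk1 lies on chromosome 6 at 119923969 to 120038695 (GRCm38.p6). Under 12 other choices of scaling, filter, tool or model, it missed the threshold with cyclic loess (1.38, adjusted p = 0.0569) and kept it with 1 surrogate variable (0.82, adjusted p = 0.0137), where no other window passed. Leaving out 1 library at a time, it missed the threshold in 6 of 16 cases, at an adjusted p of up to 0.0842 (without heart control replicate 3).

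Trps1, a GATA-type repressor of transcription on chromosome 15 at 50654757 to 50890631, had 23.5, 25.1, 20.9 and 22.2 CPM in high fibre heart and 14.7, 16.7, 17.4 and 15.3 CPM in control heart. In spleen it had 5.17, 6.39, 10.4 and 5.98 CPM on high fibre and 7.22, 14.9, 10.9 and 11.8 CPM on control diet. The heart groups were apart, and in spleen 1 high fibre library lay inside the control range. The difference was 1.23 (SE 0.26, edgeR adjusted p = 0.0374). Hs3st5, which adds 3-O-sulfate to heparan sulfate, had 6.624 ± 1.495 CPM in high fibre heart and 3.28 ± 0.379 CPM in control heart (SD, n = 4 each). In spleen it had 1.35 ± 0.542 CPM on high fibre and 3.36 ± 0.698 CPM on control diet (SD, n = 4 each). Neither tissue had overlapping groups, but the spleen values rest on 4 to 9 reads per high fibre library and 11 to 27 per control library. Its difference was 2.16 (adjusted p = 0.0374), or 2.39 (SE 0.49) without the prior count. Fmr1, on chromosome X at 68678536 to 68717963, encodes an RNA-binding protein that restrains translation at synapses. It had 12.1 ± 1.28 CPM in high fibre and 7.28 ± 1.65 CPM in control heart, and 3.37 ± 2.03 CPM in high fibre and 6.37 ± 2.63 CPM in control spleen (SD, n = 4 each). The heart groups were apart and the spleen groups overlapped, with a difference of 1.64 (SE 0.37, adjusted p = 0.0452). The pseudogene Gm5287, at 2.17 (adjusted p = 0.0452) or 2.47 (SE 0.52) without the prior count, rested on 2 to 7 reads per high fibre and 7 to 29 per control spleen library.

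Hook1, an adaptor between endosomes and microtubules, had 38.5 ± 2.95 CPM in high fibre and 24.2 ± 2.57 CPM in control heart, and 27.3 ± 1.23 CPM in high fibre and 32.6 ± 2.12 CPM in control spleen (SD, n = 4 each). Its groups did not overlap in either tissue, and the difference was 0.92 (SE 0.19, edgeR adjusted p = 0.0374). The olfactory receptor Olfr309 had 9.55 ± 1.15 CPM in high fibre and 3.59 ± 1.34 CPM in control heart, against 5.70 ± 0.940 CPM in high fibre and 7.97 ± 2.71 CPM in control spleen (SD, n = 4 each). Its difference was 1.80 (SE 0.39, adjusted p = 0.0391). Ear14, of the eosinophil-associated ribonucleases, was the only one of the 23 with an effect under 0.2 in heart. It had 6.86 ± 0.875 CPM in high fibre heart and 6.46 ± 0.893 CPM in control heart (SD, n = 4 each), with overlapping groups. In spleen it had 0.257 ± 0.206 CPM on high fibre and 1.74 ± 0.454 CPM on control diet, from 0 to 2 and from 6 to 17 reads per library. The spleen effect was -1.89 (edgeR adjusted p = 0.392), or -2.77 (SE 0.55) without the prior count. The difference was 1.98 (adjusted p = 0.0449), or 2.86 (SE 0.60) without it. For the other 20 windows among the 23 the prior count moved the difference by at most 0.09 (Olfr309). Genes of this family are near copies of each other, so its reads may come from more than 1 of them.

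On the negative side, Il27ra, the receptor chain for interleukin 27 (chromosome 8 at 84030286 to 84042600), had 9.23, 8.70, 9.12 and 7.56 CPM in high fibre heart and 16.9, 15.4, 15.6 and 10.5 CPM in control heart. In spleen it had 17.7, 20.1, 19.8 and 18.1 CPM on high fibre and 19.6, 9.29, 13.0 and 10.7 CPM on control diet. The heart groups were apart, and in spleen control replicate 1 lay within the high fibre range. The difference was -1.28 (SE 0.26, edgeR adjusted p = 0.0374). Rln3, whose start lies 2379 bases away, had -0.29 (adjusted p = 0.782). Msi1, an RNA-binding protein of stem and progenitor cells, had 16.9 ± 2.25 CPM in high fibre and 24.4 ± 1.33 CPM in control heart, and 30.2 ± 3.38 CPM in high fibre and 22.4 ± 1.28 CPM in control spleen (SD, n = 4 each). Neither pair of groups overlapped, and the signs were opposite, with a difference of -0.95 (SE 0.20, adjusted p = 0.0374).

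Hps6, needed to make lysosome-related organelles such as melanosomes (chromosome 19 at 46003478 to 46006173), had 14.4 ± 1.05 CPM in high fibre heart and 25.98 ± 1.632 CPM in control heart. In spleen it had 28.1 ± 1.62 CPM on high fibre and 26.8 ± 2.40 CPM on control diet (SD, n = 4 each). The heart groups were apart and the spleen groups overlapped. The effect was -0.84 in heart and 0.07 in spleen, and the difference -0.91 (SE 0.19, edgeR adjusted p = 0.0374). Lrrc43, a gene of a leucine-rich repeat protein, had 11.2 ± 2.21 CPM in high fibre and 18.6 ± 0.756 CPM in control heart, and 17.96 ± 1.387 CPM in high fibre and 14.5 ± 1.35 CPM in control spleen. Its difference was -1.02 (SE 0.21, adjusted p = 0.0374). The remaining negative windows were predicted genes named here after their values were seen: Gm6897 (-1.18), Gm24975 (-1.17), Gm13056 (-1.07) and Gm11863 (-0.93), each with adjusted p between 0.0158 and 0.0449. In these 4 the heart groups did not overlap and the spleen groups did. For all called windows, groups that stand apart follow in part from the choice by this same test and add no support to it. The share of tested windows with groups apart was not counted.

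**Figure D3:**
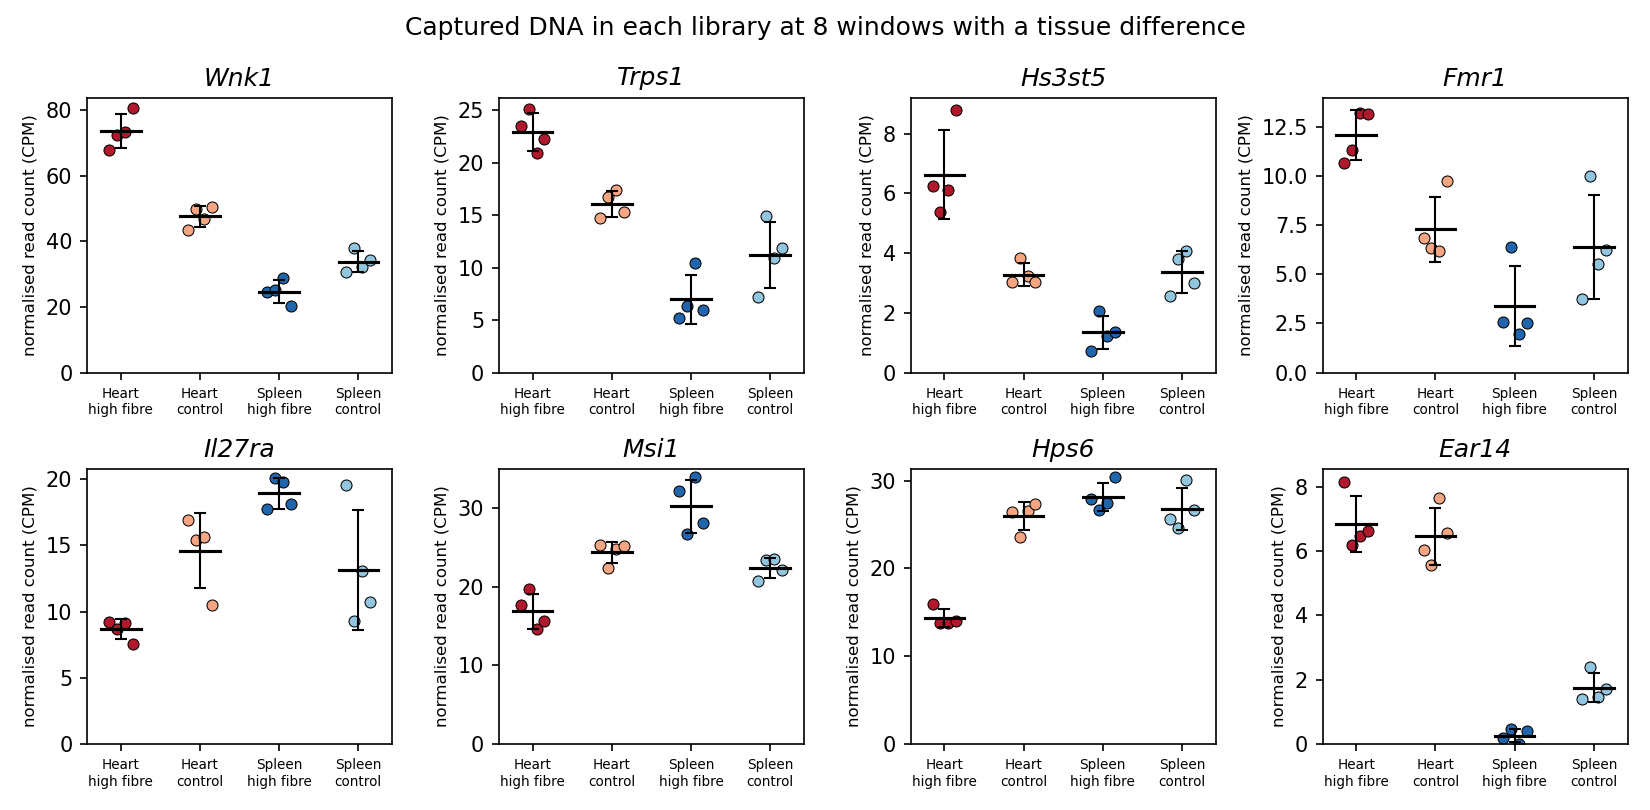
Normalised read count (CPM, y axis from 0) of 8 windows in each library of the 4 groups on the x axis, with the mean (line) and SD (bars) of 4 libraries. Wnk1 is higher on high fibre in heart and lower in spleen, Msi1 is the reverse, Hps6 differs in heart only, and Ear14 is near 0 in high fibre spleen.

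The most negative differences among the 23 came from satellite-like windows, which the rule for naming genes passed over and which are given here after their values were seen. Gm10800, Gm10801, Gm21738, Gm11168, Gm10717, Gm10722 and Gm10721 are predicted genes in repeat sequence of this kind. Their differences lay between -1.86 (Gm10800, SE 0.39, edgeR adjusted p = 0.0449) and -1.65 (Gm10801, SE 0.34, adjusted p = 0.0374). The smallest adjusted p, 0.0122, was shared by Gm10722, Gm11168 and Gm10717, and Gm10722 had -1.74 in heart and -0.01 in spleen. Together they took 20.02, 20.999, 22.23 and 24.48% of reads in the high fibre hearts and 41.9, 44.5, 48.9 and 56.6% in the control hearts. In spleen they took 57.6, 57.8, 64.8 and 67.8% on high fibre and 57.8, 62.4, 64.3 and 64.3% on control diet. The heart groups lay far apart. The spleen groups overlapped, with the high fibre libraries spread more widely: 2 lay below the control range and 2 above it. Reads of near copies can be split between these windows, so they are not 7 separate measurements.

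The share of Gm10800 alone changed by -23.2 percentage points in heart and by -0.0696 in spleen, a difference of -23.1 points. An exact two-sided permutation of the diet labels within each tissue (4900 arrangements) gave p = 0.0147, and 0.0367 after adjustment over 5 library measures. It tests for no diet effect in either tissue, not for equal effects. The share of reads in the top 1% of windows differed by -24.2 points (exact permutation p = 0.0147, adjusted 0.0367). The share of windows without reads differed by -1.78 points (exact permutation p = 0.174). Neither that share nor the total count (exact permutation p = 0.488) nor the count outside the 5 largest windows (exact permutation p = 0.336) passed. With both the satellite-like and the 5 largest windows taken out before filter, scaling and test, 33413 windows were tested and 2 passed, Wnk1 (1.09) and Gm13056 (-1.07), both at an adjusted p of 0.0397. The other 14 windows missed the threshold there with little change in value, such as Trps1 (1.23) and Il27ra (-1.28) at an adjusted p of 0.0572.

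**Figure D4:**
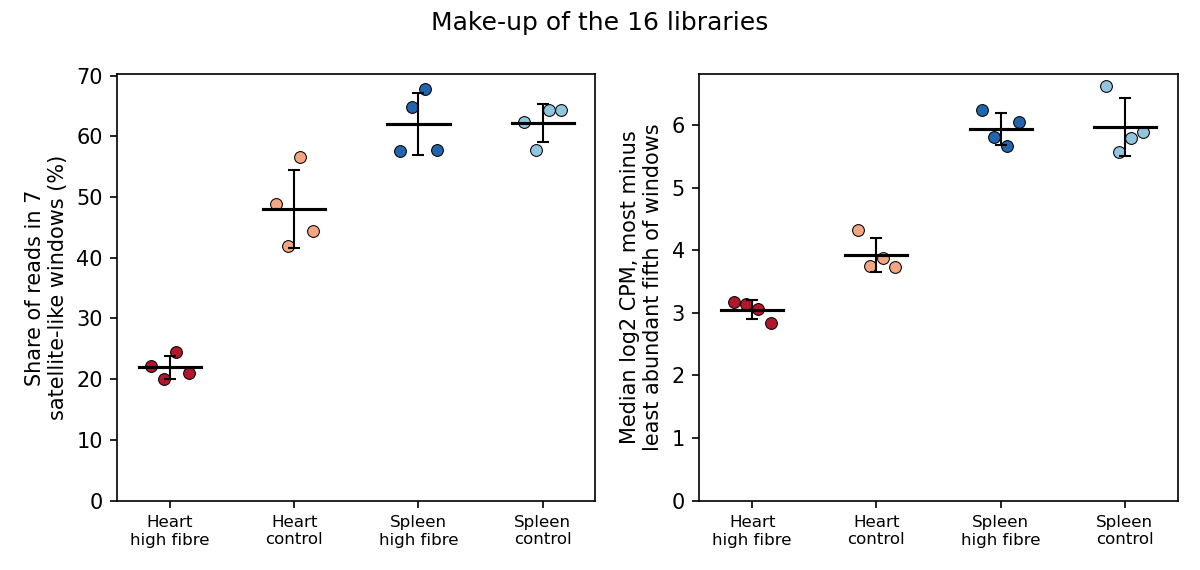
Left, the percentage of all reads in 7 satellite-like windows; right, the median log2 CPM of the most abundant quintile of windows minus that of the least abundant quintile, in each library of the 4 groups (x axis), with mean and SD of 4. High fibre hearts lie below control hearts in both panels (21.9% against 48.0%, and 3.05 against 3.92), while the spleen groups overlap.

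The gap between tissues followed how much DNA was captured at a window. Windows were split into 10 equal bins by mean abundance over all libraries, from bin 1 (least) to bin 10 (most). In bin 1 the median effect was 0.55 in heart and 0.03 in spleen, with a difference of 0.50. In bin 2 the difference was 0.58, in bin 5 it was 0.08, in bin 6 it was -0.03 and in bin 10 it was -0.33, where heart had -0.34 and spleen -0.02. Spleen medians stayed between -0.03 and 0.03 in all bins. Cyclic loess, which evens out effects that depend on abundance within a library, gave medians of -0.13 in bin 1, 0.09 in bin 2 and between -0.05 and 0.01 in all others, so the slope was absent on that scale. Library totals kept the slope but put all bins above 0 (1.14 in bin 1, 0.35 in bin 10). In bin 1, 324 windows were positive and 51 negative at an unadjusted p under 0.05, and in bin 10 38 and 1034. In high fibre hearts the median log2 CPM of the most abundant quintile exceeded that of the least abundant quintile by 2.84 to 3.17, against 3.74 to 4.32 in control hearts. In spleen the gap was 5.66 to 6.24 on high fibre and 5.56 to 6.62 on control diet. The high fibre hearts had the flattest profiles of the 4 groups, and the part of this in the results at single windows was not tested.

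**Figure D5:**
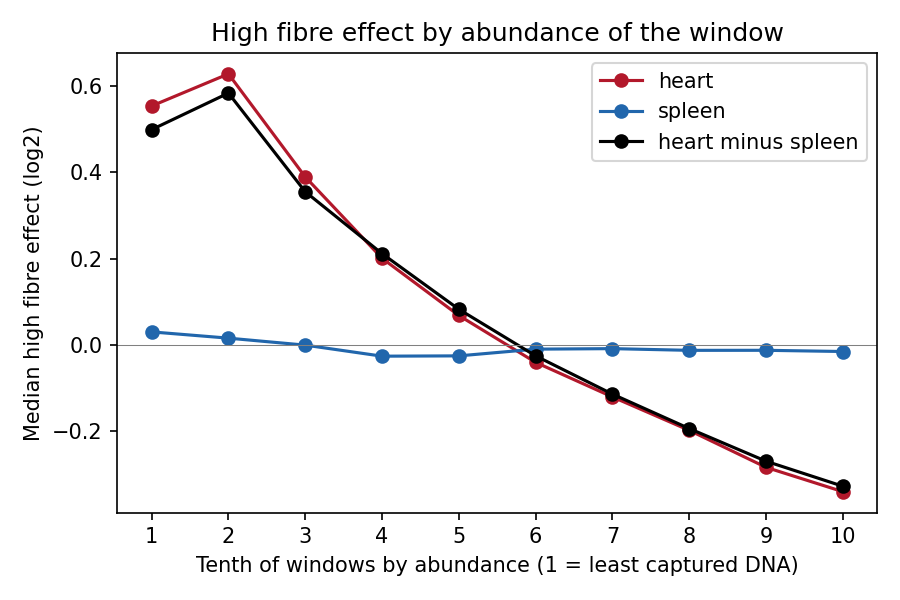
Median high fibre effect (y axis, log2) in heart, in spleen and for heart minus spleen, in 10 bins of the 33982 windows ordered by abundance (x axis). The heart line lies at 0.55 in bin 1 and at -0.34 in bin 10, while the spleen line stays within 0.03 of 0.

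CpG content showed a related pattern in the 13816 windows (40.7%) with a single RefSeq promoter. Where the 300 bases held no CG the median difference was 0.49 (798 windows), with 0.56 in heart and -0.01 in spleen. With 1 to 2 CG it was 0.29, with 3 to 5 it was -0.05, and with 6 to 10 it was lowest at -0.16. With 11 to 20 it was -0.12 and with 21 or more -0.08. Spleen medians lay within 0.03 of 0 in all 6 classes. Promoters poor in CG were also less abundant: median control values were 3.09 CPM in heart and 0.821 CPM in spleen with no CG, against 11.7 and 13.2 CPM with 6 to 10. Among windows of abundance bins 4 to 7 the medians were 0.21 with no CG, -0.03 with 6 to 10 and 0.04 with 21 or more, a narrower range.

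Gene families of low and of high abundance differed in sign. Olfactory receptor windows, which encode the odour receptors of the nose, had a median difference of 0.59 (0.65 in heart, -0.01 in spleen) over 1226 tested of 1248. Of these 196 were positive and 22 negative at an unadjusted p under 0.05, and 1 passed. Vomeronasal receptor windows had 0.70 over 452 tested of 535, with 77 positive and 1 negative. Hox cluster genes, which pattern the body axis, had 0.33 over 29 tested of 39, with 4 positive and 0 negative. Their median control levels were low in heart, at 3.09 CPM for olfactory, 2.03 for vomeronasal and 1.89 for Hox windows, against 7.85 CPM over all windows. Keratin windows (structural proteins of epithelia) lay on the other side, with -0.35 over 51 windows, 0 positive and 20 negative, and 17.1 CPM in control heart. Over all windows 6.33% were positive and 9.91% negative by that rule. Abundance bins 2 and 3, nearest to the olfactory, vomeronasal and Hox windows, had medians of 0.58 and 0.35. In them 421 and 313 of 3398 windows were positive, and 31 and 44 negative. Bin 9, nearest to the keratins, had -0.27, with 66 positive and 860 negative of 3398. The part of abundance in the family values was not tested. The olfactory, vomeronasal and Hox medians were 0.24, 0.28 and 0.20 under cyclic loess, where bins 2 and 3 had 0.09 and -0.05. The remaining scalings moved the median of all windows up against TMM by 0.02 to 0.68. A positive median stays positive under such a shift, so its sign there adds no support. The keratin median was -0.18 under cyclic loess and turned to 0.31 with library totals. The X chromosome, where windows were sparse (2.68 CPM in control heart), had a median of 0.22 over 1657 windows, and chromosome 11, at 10.8 CPM, had -0.19 over 2105.

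The 22 gene lists held 585 genes, of which 551 were tested, and Wnk1, in the blood pressure list, was the only member of any list to pass. Of the 27 named genes that did not pass, 21 passed in at least 1 of 15 other settings, but only 1 in most of them (Col3a1, in 11). Some of these settings called many windows of any kind: 6500 of 33982 with library totals, 4159 of 33817 with 15 libraries and 1687 of 33443 with the replicate block. Most of the 27 were also named for having the smallest p of their list. Median differences ran from -0.33 to 0.17 and were below 0 in 20 lists, against -0.01 over all windows. Below 0 were 13 lists under cyclic loess and 0 with library totals, where the lowest median was 0.32 and that of all windows 0.67. Spleen medians of the lists lay between -0.07 and 0.05 and heart medians between -0.32 and 0.11. Germline and meiosis genes had the lowest median (-0.33), with 9 negative and 0 positive of 36 at an unadjusted p under 0.05, against 6.33% positive and 9.91% negative over all windows, and the smallest p at the dipeptidase Dpep3 (-0.75, adjusted p = 0.155). Their median level was 18.2 CPM in control heart, at which abundance all windows had negative medians. Erythroid and platelet genes had the highest median (0.17), with 1 positive and 4 negative of 22 and the smallest p at the red cell factor Gata1, -0.63 (adjusted p = 0.149), so median and leading gene differed in sign.

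Genes tied to fibre products did not pass in the fit of all 23 libraries. Among genes that sense and use short-chain fatty acids 3 were positive and 4 negative of 29 at an unadjusted p under 0.05 (6.33% and 9.91% over all windows), with a median of -0.08. The propionate and butyrate receptor gene Ffar3 had 12.2 ± 1.02 CPM in high fibre and 17.6 ± 3.01 CPM in control heart, and 46.1 ± 9.37 CPM in high fibre and 46.8 ± 9.63 CPM in control spleen (SD, n = 4 each). Its difference was -0.51 (SE 0.24, edgeR adjusted p = 0.283). The acetate receptor gene Ffar2 had -0.34 (adjusted p = 0.451) and Hcar2, a receptor for ketone bodies and butyrate, -0.59 (adjusted p = 0.192). With library totals as the scale, which moved the median of all windows by 0.68, Ffar3 turned to 0.15, Ffar2 to 0.32 and Hcar2 to 0.08. Blood pressure genes other than Wnk1 did not pass, with 1 positive (Wnk1) and 3 negative of 34. The heart effect passed for Hcar2 (adjusted p = 0.0140) and Ffar3 (adjusted p = 0.0391) and not for Ffar2 (adjusted p = 0.118). The tissue difference of Hcar2 passed in 2 of 15 other settings, and those of Ffar2 and Ffar3 in 1 each. For Hcar2 these were the 16 libraries with a replicate block (adjusted p = 0.0247) and 15 libraries without spleen control replicate 1 (adjusted p = 0.00345).

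Among the writers and erasers of chromatin marks no difference passed in the fit of all 23 libraries. Ehmt2, a histone H3 lysine 9 methyltransferase, had 34.0, 33.6, 33.9 and 27.8 CPM in high fibre heart and 68.7, 57.1, 61.1 and 65.3 CPM in control heart. In spleen it had 197, 136, 124 and 145 CPM on high fibre and 220, 112, 134 and 133 CPM on control diet. The heart groups were apart and the spleen groups overlapped, with 1 high library in each diet, replicate 1. The heart effect was -0.96 (edgeR adjusted p = 0.00575) and the spleen effect 0.01. The difference was -0.97 (SE 0.27, adjusted p = 0.133), and -1.21 (adjusted p = 0.0155) without spleen control replicate 1. It passed in 6 of 15 other settings, among them totals without the 5 largest windows (adjusted p = 0.0359), cyclic loess (0.0433), the 16 libraries alone (0.0301) and the 16 with a replicate block (0.000189). Histone lysine methylation genes had 1 positive and 6 negative of 27 at an unadjusted p under 0.05 (6.33% and 9.91% over all windows), histone acetylation genes 1 and 6 of 29, with the smallest p at the deacylase Sirt4 (-0.74, adjusted p = 0.155), and DNA methylation genes 0 and 7 of 26. The median log2 CPM of these lists (5.64, 4.56 and 4.68) was near that of abundance bins 9 (4.74) and 10 (5.69). By the same rule 860 of 3398 windows were negative and 66 positive in bin 9. In bin 10 these were 1034 and 38 of 3399. Uhrf1, which brings the maintenance methyltransferase to replicated DNA, had -0.65 (adjusted p = 0.218). That methyltransferase, Dnmt1, had -0.37 (adjusted p = 0.328) and the de novo enzyme Dnmt3a -0.33 (adjusted p = 0.384). Sirt4 passed in 4 of the 15 other settings, Uhrf1 in 2, Dnmt3a in 1 and Dnmt1 in 0.

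Among heart genes, Col3a1, a collagen of fibrous tissue, came closest to the threshold. It had 22.05, 27.05, 27.2 and 32.7 CPM in high fibre heart and 10.8, 16.3, 13.3 and 13.0 CPM in control heart, against 13.3, 11.6, 14.1 and 16.8 CPM in high fibre spleen and 14.7, 13.1, 15.3 and 16.3 CPM in control spleen. The difference was 1.10 (SE 0.24, edgeR adjusted p = 0.0558), with 1.02 in heart (adjusted p = 0.000354) and -0.08 in spleen. It passed in 11 of 15 other settings, with adjusted p-values between 0.000516 and 0.294, such as RLE size factors (0.0450), DESeq2 (0.0150) and the 16 libraries alone (0.00852), and in 2 of 16 fits with 1 library left out. Mef2c, a muscle transcription factor, had 0.99 (adjusted p = 0.0765) and the fatty acid carrier Cd36 1.47 (adjusted p = 0.124). Mef2c passed in 7 and Cd36 in 5 of the 15 other settings. The natriuretic peptide gene Nppa had -0.74 (adjusted p = 0.203), the cytokine gene Osm -0.93 (adjusted p = 0.152) and the early response gene Egr1 -0.58 (adjusted p = 0.286). Osm passed in 3 of the 15 other settings, Egr1 in 1 and Nppa in 0. Cardiomyocyte genes had 5 positive and 5 negative of 33 at an unadjusted p under 0.05 (6.33% and 9.91% over all windows), fibroblast genes 3 and 0 of 20, endothelial genes 0 and 2 of 20 (Pecam1, -0.36), smooth muscle and pericyte genes 0 and 2 of 15 (Lmod1, -0.54), and heart fuel genes 3 and 3 of 28. Cardiac stress genes had 0 and 4 of 31.

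Of the immune lists no member passed in the fit of all 23 libraries. Among their named genes Tcf7 passed in 6 of 15 other settings, Ikzf4 in 5, Cd37 in 3, and Csf1r and Bst2 in 0. T and NK cell genes had 1 positive and 8 negative of 28 at an unadjusted p under 0.05 (6.33% and 9.91% over all windows), with the smallest p at the T cell factor Tcf7 (-0.87, edgeR adjusted p = 0.0674). Myeloid genes had 1 and 8 of 27, with the smallest p at the macrophage growth factor receptor Csf1r (-0.55, adjusted p = 0.182). Helper and regulatory T cell genes had 0 and 6 of 34, with the smallest p at Ikzf4 (-1.09, adjusted p = 0.0975), MHC and interferon genes 0 and 5 of 27 (Bst2, which tethers virus particles, -0.97) and B cell genes 1 and 1 of 19 (Cd37, a tetraspanin, -0.91). The summed level of the 27 myeloid windows was 323 to 363 CPM in high fibre heart and 414 to 443 CPM in control heart, and 434 to 549 CPM in high fibre spleen and 473.3 to 582.001 CPM in control spleen. This was not particular to myeloid genes. In heart the summed level lay wholly lower on high fibre for 6 of 9 cell type lists. Besides myeloid these were T and NK, B, erythroid and platelet, endothelial, and smooth muscle and pericyte genes. Over all windows the median heart effect was also below 0 in abundance bins 6 to 10, down to -0.34 in bin 10. How often such sums lay apart in other sets of windows of like abundance was not counted. T and NK cell windows summed to 340 to 374 CPM in high fibre heart and 420 to 473 CPM in control heart, and endothelial windows to 328 to 347 CPM in high fibre heart and 368 to 391 CPM in control heart. Heart ranges overlapped for cardiomyocyte, fibroblast and spleen stroma genes, and in spleen the ranges of all 9 lists overlapped. The part of the cell mix in these differences was not tested. Circadian clock genes had 1 and 1 of 20 (Csnk1e, -0.43). The list of imprinted genes had 0 and 1 of 29 (L3mbtl1, -0.57), and the imprinting of each member in mouse was not checked. Spleen stroma genes had 1 and 1 of 11 (Nr2f2, 1.00) and housekeeping genes 3 and 4 of 24 (Ywhaz, 1.26).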

How the data were processed

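Methylated DNA from left ventricle and spleen was captured and sequenced. Per the submitters' processing notes featureCounts 1.5.1 was used with BWA 0.7.10, on GRCm38; edgeR 3.16.5 and bcl2fastq 2.19.1.403 are also listed. The authors deposited raw counts per 3 kb window at gene starts. How duplicate and multiply mapped reads were handled, and where a window sits around its start, is not given in the sources used here. There was no input library among the libraries used. Counts were joined over both tissues and fitted in edgeR 4.0.16 (R 4.3.3) by the quasi-likelihood test, with 6 groups, 23 libraries, TMM scaling, a minimum count of 10 (filterByExpr) and a prior count of 2. Adjusted p-values are Benjamini-Hochberg over all windows tested, called at 5%. CPM are TMM-scaled. The standard error is the size of the log2 effect without the prior count divided by the root of F, while printed effects include the prior count. Limma 3.58.1, DESeq2 1.42.0 and sva 3.50.0 gave alternatives, and the scripts were tested on simulated data. There, differences planted in high fibre heart, 50 windows per size, were recovered at 2% for 1.5-fold, 34% for 2-fold and 76% for 4-fold. Windows that did not pass are therefore not shown to lack a difference. Gene names and coordinates are from RefSeq GRCm38.p6 (81.3% of tested windows matched by symbol). Members and lists were chosen with earlier results of these data known, and 7 satellite-like windows after their values were seen. Named genes were the 10 windows of smallest p in each direction past the threshold, those with opposite or spleen-only effects, 10 fixed genes and the member of smallest p in each list, passing over predicted genes (Gm symbols).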

Additional observations from a re-analysis of the deposited data

Results flagged for a closer look

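In 14 of 220 groups of 4 libraries, 1 library stood apart from the other 3 by Dixon's test, which chance does in about 1 of 20 groups. In heart these were Hook1 in control (20.4 CPM), Cd37 in control (10.2 CPM), Hps6 in high fibre (15.9 CPM), Ehmt2 in high fibre (27.8 CPM) and Gm6897 in high fibre (5.72 CPM). In spleen they were Fmr1 in high fibre (6.39 CPM), Ikzf4 in high fibre (29.9 CPM) and Cd37 in control (38.0 CPM). Spleen control replicate 2 was low in Gm21738 (12040 CPM), Gm10801 (59170 CPM), Gm10722 (321.9 CPM), Gm11168 (3051 CPM) and Gm10717 (2564 CPM), and a control spleen library held 63.2% of reads in the top 1% of windows.

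The high fibre effect differed between heart and spleen by edgeR's test of the difference itself in 23 windows. Positive values (heart minus spleen, log2) were 1.09 for Wnk1, 1.23 for Trps1, 2.16 for Hs3st5, 0.92 for Hook1, 1.80 for Olfr309, 1.98 for Ear14, 1.64 for Fmr1 and 2.17 for Gm5287. Negative values in named genes were -1.28 for Il27ra, -0.95 for Msi1, -0.91 for Hps6 and -1.02 for Lrrc43. Predicted genes had -1.79 (Gm21738), -1.65 (Gm10801), -1.86 (Gm10800), -1.73 (Gm10722), -1.75 (Gm11168), -1.66 (Gm10721), -1.77 (Gm10717), -0.93 (Gm11863), -1.07 (Gm13056), -1.17 (Gm24975) and -1.18 (Gm6897). By exact permutation, the share of reads in the largest window differed by -23.1 percentage points and that in the top 1% of windows by -24.2.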

How the results depend on the processing

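The count of windows with a tissue difference was 23 and ran from 0 to 619 when 1 library was left out, below 23 in 15 of 16 cases. It was 6500 with library totals, 70 with totals less the 5 largest windows, 11 with cyclic loess, 110 with DESeq2, 576 with 16 libraries and 1 with a surrogate variable. Chosen after seeing the data, the fit without heart acetate replicate 1 gave 261, that with 15 libraries (no spleen control replicate 1) 4159, and that without satellite-like and largest windows 2. The replicate block, with 16 libraries, gave 1687 (238 positive, 1449 negative). Same-numbered heart and spleen libraries correlated between -0.06 and 0.25 over 8 pairs, 3 of them over 0.1, and 2 correlated best with their own number, so the numbers are not shown to pair them. The heart and spleen effects alone could not be fitted with the block. The heart count (5007) was 23580 with library totals, 1054 with loess, 8720 with voom, 8686 with 16 libraries, 1 with a surrogate variable, 8069 without heart acetate replicate 1, 10267 with 15 libraries and 114 to 6042 with 1 library left out. The spleen count was 2 with loess and 0 with any 1 library left out. None of the 23 windows changed sign in any alternative run. With library totals these did, none of them called: Ffar2 0.32, Ffar3 0.15, Hcar2 0.079, Dnmt1 0.31, Dnmt3a 0.35, Egr1 0.067, Pecam1 0.32, Lmod1 0.14, Csf1r 0.15, Gata1 0.076, Uhrf1 0.010, Csnk1e 0.25 and L3mbtl1 0.10. Ffar2 was 0.055 with a surrogate variable and Dnmt3a 0.066 with loess. The difference in windows without reads was -2.601 to -1.11 points with 1 library left out, and passed at -2.601 without spleen control replicate 1 (exact permutation p = 0.0327). The cause was not tested for any of these. Low counts in spleen limit the sparse windows most.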

Other observations

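Immunoglobulin and T cell receptor V segment windows had a median difference of 0.51 over 300 tested, and miRNA gene windows -0.16 over 614, against -0.04 over 18850 protein-coding windows. The V segment windows were sparse, with a median of 2.27 CPM in control heart. All windows of abundance bin 2, at a like level (2.23 CPM in control heart), had a median difference of 0.58.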
